A study of Mus musculus with 6 samples.

Results

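The report covers 10 genes of mitochondrial protein upkeep in mouse liver. The matrix proteases were Clpx, Clpp and Lonp1, and the matrix chaperones Hspd1, Hspe1 and Hspa9. The others were the assembly factors Sco1, Sco2 and Ndufaf4, and Coq8a, a kinase of coenzyme Q synthesis. All 10 genes were taken as every probe set that the platform annotation names for 1 of the 10 symbols. That gave 16 probe sets of 9 genes, out of 22626 probe sets and 12393 named genes. Sco1 was not analysed here, because the annotation used names no probe set for it. The genes were picked with their differences between the groups known, so those differences are given as a description and without a test.

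The samples were livers of male C57BL/6J mice after 90 d on either of 2 kinds of drinking water. The 3 control arrays came from mice given distilled water, and the 3 source water arrays from mice given the drinking source water, which the labels abbreviate DSW and do not describe further. Of 10 mice in a group, 9 were used, and each array holds RNA of 3 livers homogenised together, so the spread between arrays is one between pools and hides that between single animals. All values are log2 signals of probe sets on Affymetrix mouse arrays that read the 3' part of a transcript, so a difference of 1 is a doubling of signal.

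As background, nearly all mitochondrial proteins are made in the cytosol, imported unfolded and folded in the matrix by the HSP70 protein mortalin (Hspa9) and by the chaperonin pair HSP60 and HSP10 (Hspd1 and Hspe1). Damaged or surplus matrix proteins are removed by ATP-dependent proteases, LONP1 and the ClpXP complex, in which CLPX unfolds the substrate and CLPP cuts it. Assembly factors then help build the respiratory complexes, and hepatocytes are rich in mitochondria. When unfolded proteins build up in the matrix, mammalian cells can raise chaperone and protease genes together, a programme known as the mitochondrial unfolded protein response.

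The 16 probe sets did not move as a block. Clpx, Sco2 and Coq8a were higher in source water, Ndufaf4 was lower, and Clpp, Lonp1, Hspd1, Hspe1 and Hspa9 differed by at most 0.26 in either direction on the log2 scale. The promoter windows of the 4 genes that differed most, and of Hspe1 from the group that differed little, are shown because they let the reader compare genes that moved apart. Each runs from 250 bases before to 50 after the RefSeq start on GRCm38.p6, 5' to 3' on the gene's strand. Capitals mark matches to the motifs searched. The windows are chr9:65294010-65294309 on the + strand for Clpx, chr15:89373842-89374141 on the - strand for Sco2, chr1:180195971-180196270 on the - strand for Coq8a, chr4:24897833-24898132 on the + strand for Ndufaf4 and chr1:55087898-55088197 on the + strand for Hspe1.
Clpx: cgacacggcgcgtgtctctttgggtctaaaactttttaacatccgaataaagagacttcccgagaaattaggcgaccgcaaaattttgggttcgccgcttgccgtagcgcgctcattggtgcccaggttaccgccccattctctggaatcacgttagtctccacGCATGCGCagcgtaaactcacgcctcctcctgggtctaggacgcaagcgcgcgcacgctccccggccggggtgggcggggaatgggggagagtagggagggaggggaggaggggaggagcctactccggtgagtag
Sco2: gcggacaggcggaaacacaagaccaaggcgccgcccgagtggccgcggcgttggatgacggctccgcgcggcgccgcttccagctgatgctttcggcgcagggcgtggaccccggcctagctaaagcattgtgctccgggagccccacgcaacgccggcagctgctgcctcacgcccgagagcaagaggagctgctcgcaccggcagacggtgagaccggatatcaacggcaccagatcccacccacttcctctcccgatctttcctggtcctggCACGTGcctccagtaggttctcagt
Coq8a: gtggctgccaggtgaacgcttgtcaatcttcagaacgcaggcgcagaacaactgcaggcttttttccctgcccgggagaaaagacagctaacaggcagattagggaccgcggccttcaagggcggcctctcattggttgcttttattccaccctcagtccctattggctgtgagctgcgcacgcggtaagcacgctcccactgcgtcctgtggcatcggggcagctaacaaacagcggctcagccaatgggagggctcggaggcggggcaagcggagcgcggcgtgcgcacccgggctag
Ndufaf4: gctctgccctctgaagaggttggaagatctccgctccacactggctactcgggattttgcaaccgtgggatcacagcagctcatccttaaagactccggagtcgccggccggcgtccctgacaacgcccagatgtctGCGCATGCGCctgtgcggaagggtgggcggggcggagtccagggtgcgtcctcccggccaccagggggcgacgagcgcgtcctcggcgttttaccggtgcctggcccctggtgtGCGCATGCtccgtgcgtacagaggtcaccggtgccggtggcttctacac
Hspe1: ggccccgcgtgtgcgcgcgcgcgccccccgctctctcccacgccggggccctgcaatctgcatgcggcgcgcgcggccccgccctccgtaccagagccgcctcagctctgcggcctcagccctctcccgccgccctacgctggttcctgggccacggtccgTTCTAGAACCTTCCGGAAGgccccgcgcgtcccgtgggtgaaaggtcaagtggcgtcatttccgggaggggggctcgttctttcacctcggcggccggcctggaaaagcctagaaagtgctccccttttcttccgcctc

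The motifs were searched on both strands. They were TGATGNAA, bound by ATF4 with C/EBP proteins and by CHOP, GAANNTTC and TTCNNGAA of heat shock factors, GCGCATGC of NRF1, CCGGAAG of GABPA and other ETS factors, CACGTG, the E-box, and, for PPAR with RXR, the DR1 element, a direct repeat of AGGTCA with 1 base between. The windows of Clpx and Ndufaf4, which lay apart by sign, both held the NRF1 motif, at bases 165 to 172 in Clpx and, in Ndufaf4, as overlapping matches at bases 138 to 147 and a further match at bases 252 to 259. This motif stood in 2.71% of the 32851 RefSeq windows of this length. Sco2 held an E-box at bases 276 to 281, as do 7.15% of all windows. Since Sco2 lies almost wholly inside another gene, Tymp, on the same strand, its window may be Tymp sequence and not a separate promoter. Lonp1 also held an E-box, at bases 215 to 220 of its window, as did the other of 2 Hspd1 windows, at bases 171 to 176. Sco1 held CCGGAAG on the opposite strand at bases 206 to 212. Neither RefSeq window of Coq8a held any motif searched. Clpp held TTCNNGAA and CCGGAAG in overlap at bases 284 to 292, downstream of its start.

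The Hspe1 window shares 285 bases with a window of Hspd1 on the opposite strand, since both genes start from the same stretch of DNA and run apart. That stretch held overlapping heat shock motifs at bases 162 to 179 and ETS motifs at bases 171 to 180, counted in the Hspe1 window. All windows with GAANNTTC came to 7.86%, those with TTCNNGAA to 8.52% and those with CCGGAAG to 8.86%. The ATF4 and CHOP motif, in 3.97% of all windows, and the PPAR motif, in 0.0396%, matched no window of the 9 members that had one in the table. Members' windows were rich in CpG: the 5 shown held 22 to 36 CpG dinucleotides, against a median of 7 over all windows, and the other Coq8a window held 6. A match is a run of letters and was not tested for binding.

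Clpx was the protease gene that differed most. Its only probe set (1423447_at) read 9.47, 8.96 and 9.42 on control arrays 1 to 3 and 11.17, 10.45 and 10.90 on source water arrays 1 to 3. The groups did not overlap, with 0.98 between the highest control and the lowest source water array, and replicate 2 was the lowest array of both groups. The means were 9.28 ± 0.28 in control and 10.84 ± 0.37 in source water (SD, n = 3 each), a log2 difference of 1.56 ± 0.21 (SE) or 2.95-fold. Over all 22626 probe sets, 19 differed by more in either direction. The Clpx value rests on this probe set alone.

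Clpp, the peptidase that CLPX feeds, had a flat signal. Its probe set 1416615_at read 10.13, 10.17 and 10.10 in control and 10.22, 10.19 and 10.25 in source water. These groups did not overlap, but the gap was 0.03 and the log2 difference 0.09 ± 0.10 (SE). The other probe set, 1416616_s_at, differed by -0.05 ± 0.10, with groups that overlapped. Both subunits thus give a within-array contrast: Clpx minus Clpp (1416615_at) was -0.66, -1.21 and -0.68 in control and 0.95, 0.26 and 0.65 in source water. The contrast restates the unequal differences of a pair chosen with them known, and does not show that Clpp stayed constant.

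Lonp1, the protease known for clearing oxidised matrix proteins, read 8.95, 8.83 and 8.67 in control and 8.87, 9.08 and 8.93 in source water. The groups overlapped, and the log2 difference was 0.15 ± 0.12 (SE).

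**Figure D1:**
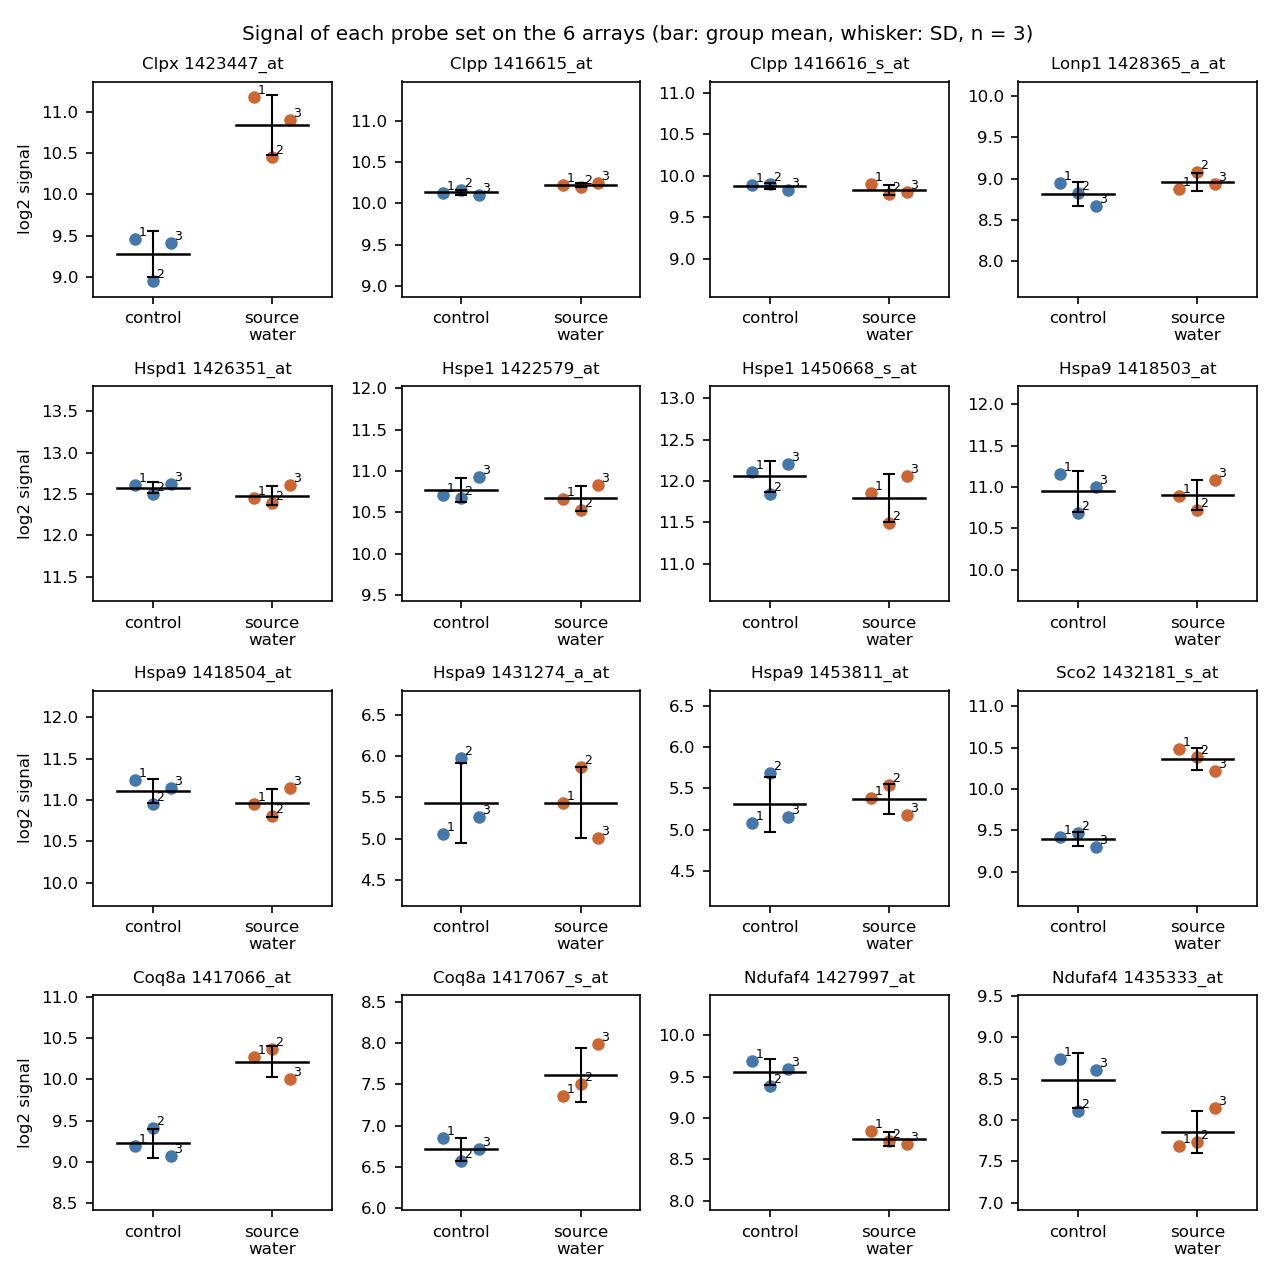
Each panel plots the log2 signal of 1 probe set on the 3 control arrays (blue) and 3 source water arrays (orange), with replicate numbers, group means (bars) and SD (whiskers); all panels span the same log2 range. Clpx, Sco2, both Coq8a probe sets and Ndufaf4 1427997_at show groups set clearly apart, whereas the groups of Lonp1, Hspd1, Hspe1 and Hspa9 overlap.

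The chaperone genes were level or slightly lower in source water. Hspd1, whose product HSP60 forms the folding chamber, read 12.60, 12.50 and 12.63 in control and 12.45, 12.39 and 12.61 in source water. The groups overlapped, with a log2 difference of -0.10 ± 0.11 (SE). Hspe1, whose product HSP10 is the lid of that chamber, read 12.11, 11.84 and 12.21 in control and 11.85, 11.49 and 12.06 in source water with probe set 1450668_s_at. Its groups overlapped too, with a difference of -0.26 ± 0.17 (SE). That value ran from -0.10 without source water replicate 2 to -0.39 without source water replicate 3. The other probe set, 1422579_at, differed by -0.10 ± 0.13.

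Hspa9, the matrix HSP70 that also pulls proteins through the inner membrane, had 4 probe sets, and their groups overlapped in every case. Probe sets 1418504_at and 1418503_at, with means of 11.04 and 10.93, differed by -0.14 ± 0.13 and -0.05 ± 0.16 (log2, SE). The other pair, 1431274_a_at and 1453811_at, had means of 5.43 and 5.34, below the median of all probe sets at 5.83, and differed by 0.00 ± 0.28 and 0.06 ± 0.18.

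The chaperones did share an order of arrays inside each group, which the choice of genes did not use. In all 5 probe sets of Hspd1, Hspe1 and Hspa9 above the median of all probe sets, replicate 2 was the lowest array of the control group and of the source water group, and source water replicate 3 was the highest of its group. The dim pair of Hspa9 ran the other way, highest in replicate 2 of both groups, as did 28.0% of all probe sets below the median (16.8% after a repeated quantile normalization). The low place of replicate 2 in the bright sets is also common on these arrays. Of the 11313 probe sets above the median, 24.6% were also lowest in replicate 2 of both groups. The share was 28.2% of the 1382 probe sets at least as bright as the dimmest of the 5. Control replicate 2 and source water replicate 2 had the narrowest spread of signal over all probe sets (SD 2.33 and 2.36, against 2.38 to 2.45 on the other arrays). Source water replicate 3 had the widest (SD 2.45). The share of all probe sets that were highest on that array was not counted, so nothing is read from its place. After a repeated quantile normalization, which gives all arrays the same spread, 4 of the 5 chaperone probe sets were still lowest in replicate 2 of both groups. So were 17.5% of all probe sets above the median.

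**Figure D2:**
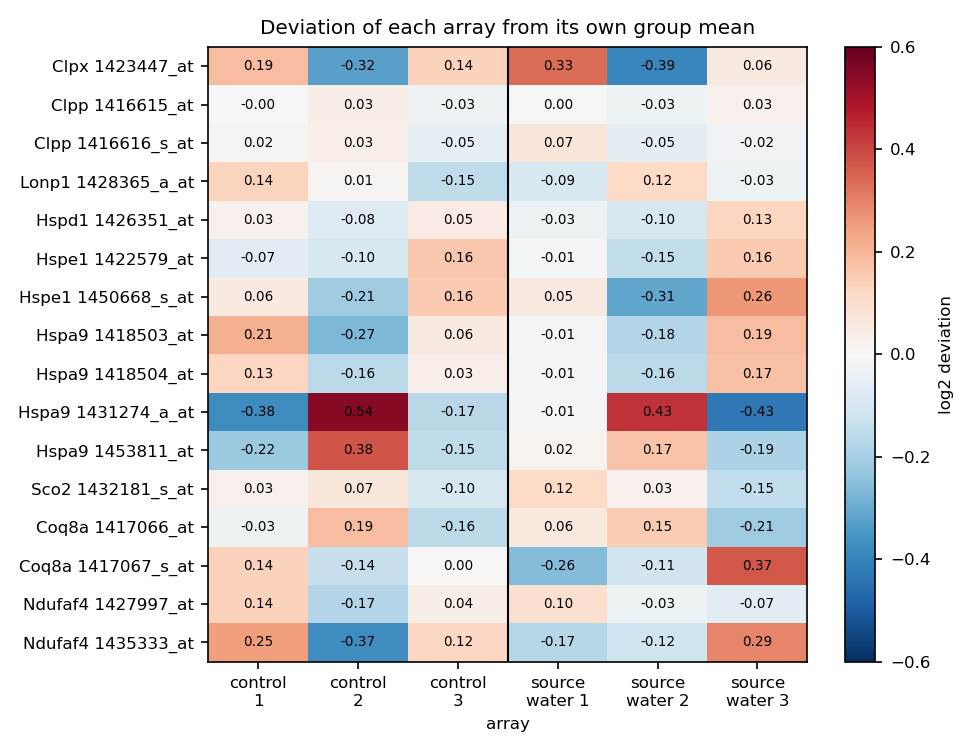
The cells give the log2 deviation of each array (columns) from the mean of its own group, for each probe set (rows), with red above and blue below. The 5 bright chaperone probe sets are blue in replicate 2 of both groups, as are Clpx, Coq8a 1417067_s_at and both Ndufaf4 probe sets. The dim Hspa9 pair, Sco2, Lonp1 and Coq8a 1417066_at are above their group mean there.

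Among assembly factors, Sco2 was higher and Ndufaf4 lower in source water. Sco2 encodes a copper chaperone of the inner membrane that helps load copper into complex IV. Its only probe set (1432181_s_at) read 9.42, 9.47 and 9.30 in control and 10.48, 10.39 and 10.22 in source water. The groups lay 0.75 apart, with means of 9.40 ± 0.09 and 10.36 ± 0.14 (SD, n = 3 each), a log2 difference of 0.97 ± 0.11 (SE) or 1.96-fold. In RefSeq, Sco2 lies almost wholly inside Tymp, the thymidine phosphorylase gene, on the same strand and with the same 3' end. The array reads 3' sequence and no probe set is named for Tymp, so signal from Sco2 and Tymp cannot be told apart.

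Coq8a encodes an atypical kinase needed for coenzyme Q synthesis, and both of its probe sets were higher in source water. Probe set 1417066_at read 9.20, 9.41 and 9.07 in control and 10.27, 10.37 and 10.00 in source water. Probe set 1417067_s_at read 6.85, 6.57 and 6.71 in control and 7.36, 7.50 and 7.99 in source water. Neither had groups that overlapped, with gaps of 0.59 and 0.51. The log2 differences were 0.99 ± 0.14 and 0.90 ± 0.17 (SE), or 1.98-fold and 1.87-fold. The probe sets did not share the order of arrays within a group: among source water arrays replicate 3 was the lowest in the former and the highest in the latter.

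Ndufaf4 encodes an assembly factor of complex I, the entry point of electrons from NADH. Probe set 1427997_at read 9.70, 9.38 and 9.60 in control and 8.84, 8.72 and 8.68 in source water. All 3 source water arrays lay below all control arrays, by a gap of 0.54, and the signal was lower by a log2 difference of -0.81 ± 0.12 (SE), with control 1.75-fold above source water. Probe set 1435333_at read 8.73, 8.11 and 8.60 in control and 7.69, 7.74 and 8.15 in source water. Here the groups overlapped, since source water replicate 3 lay above control replicate 2, and the difference was -0.62 ± 0.19 (SE).

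**Figure D3:**
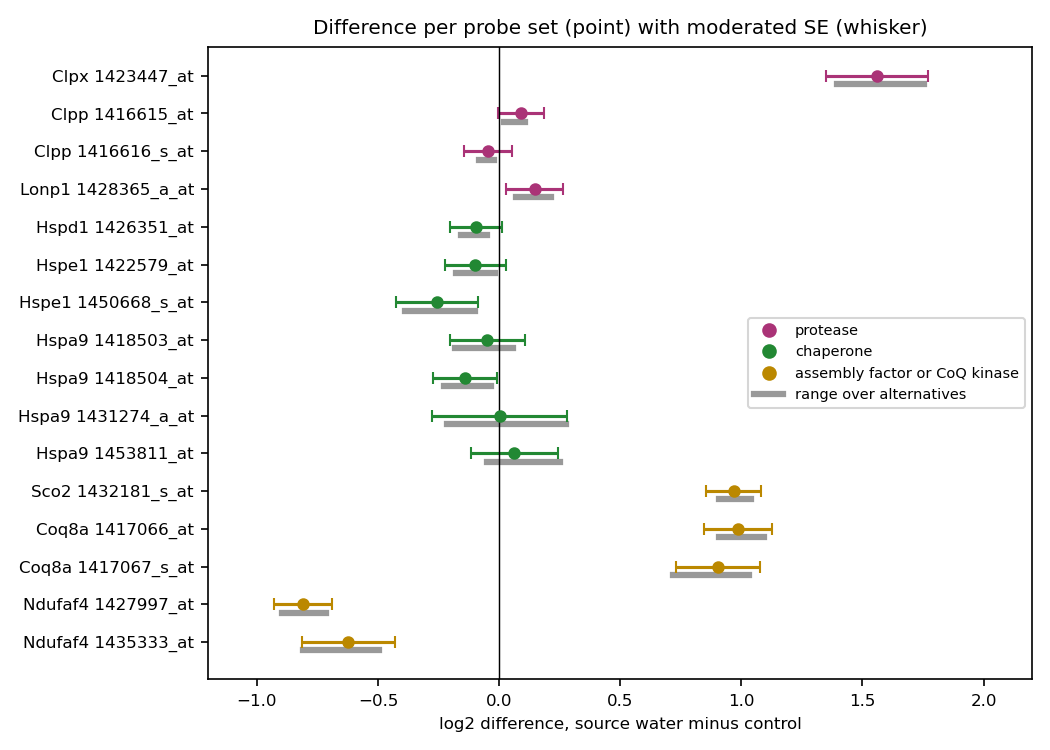
Points give the log2 difference, source water minus control, of each probe set with its moderated SE, coloured by role, and grey bars give the range of that difference over the alternative settings. Clpx, Sco2 and Coq8a lie to the right of 0.5 and both Ndufaf4 probe sets to the left of 0, and the grey bars of 3 Hspa9 probe sets cross 0.

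In all, 6 of the 16 probe sets had groups that did not overlap, 5 higher and 1 lower, where 10.7% of all probe sets had such groups, 5.52% higher and 5.14% lower. In the limma fit over all probe sets, 0 of the 16 met an adjusted p of 0.05 (0.0398% of all did) and 6 had an unadjusted p under 0.05 (6.02% of all), 4 higher and 2 lower (3.43% and 2.59% of all). The median log2 difference of the 16 was -0.02, against -0.01 over all probe sets. Because the genes were chosen on this contrast, nothing is read from these counts.

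Other mitochondrial genes of like function were then counted in the same fit, without the members. The genes were listed by role, though with earlier results of these data known. They formed 9 lists of proteases with prohibitins, chaperones, protein import, assembly of complexes I to V, coenzyme Q synthesis, stress regulators and biogenesis regulators. Of 145 genes listed, 114 were measured. At a limma adjusted p of 0.05, 0 of 114 passed, against 0.0323% of all genes, and limma-trend and an unmoderated statistic also called 0, while limma with a replicate block called 1, Atf5. Without adjustment 11 of 114 (9.65%) had a p under 0.05, against 6.76% of all genes. Of these 4 (3.51%) were higher, against 4.16% of all genes, and 7 (6.14%) lower, against 2.6%. The median log2 difference of the 114 genes was -0.05, against 0.00 over all genes, and 110 of them differed by less than 1.5-fold. By sign, 43 of the 114 were higher and 71 lower, against 6136 and 6257 of all 12393 genes. The split by sign was not tested for any list.

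The lists around Clpx and the chaperones held no gene with an unadjusted limma p under 0.05 by its brightest probe set on all 6 arrays. Of all genes 6.76% had such a p, so lists this short would hold few, and nothing is read from their absence. Of 14 other genes in the protease list, which also holds the scaffold protein genes Phb2 and Stoml2, 5 were higher and 9 lower. The largest difference was that of Immp1l, a peptidase that trims imported proteins, at 0.28 ± 0.16 (log2, SE; limma adjusted p = 0.960). Pitrm1, which degrades cut-off import signals, differed by 0.16 ± 0.10 (limma adjusted p = 0.979), and by 0.32 with its other probe set. Without control replicate 3, Immp1l had an unadjusted p under 0.05. Of 9 other chaperone genes 5 were higher and 4 lower. Ppif, the cyclophilin of the permeability pore, differed by -0.36 ± 0.21 (limma adjusted p = 0.963) and by -0.54 with its other probe set. The mean of its probe sets differed by -0.45 ± 0.15, with an unadjusted limma p of 0.0152 and an adjusted p of 0.488, and without control replicate 3 the brighter probe set had an unadjusted p of 0.0295. Grpel2, a nucleotide exchange factor of the matrix HSP70, differed by 0.17 ± 0.11 (limma adjusted p = 0.980).

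Of the 24 genes of protein import, 7 were higher and 17 lower, with a median log2 difference of -0.11. Timm17a, a subunit of the inner membrane translocase, differed by -0.42 ± 0.13 (log2, SE; limma adjusted p = 0.537). Tomm40, the pore of the outer membrane, differed by -0.44 ± 0.16 (limma adjusted p = 0.687). The groups of both genes did not overlap, with source water lower, as for 623 of all 12393 genes. Neither gene passed the test after adjustment.

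Among 14 other genes of complex IV assembly, 3 were higher and 11 lower. Coa6 stood out on the side opposite to the Sco2 probe set, whose signal cannot be told apart from that of Tymp. Coa6, which in human cells works with the SCO proteins in copper delivery, read 10.38, 10.48 and 10.49 in control and 9.57, 9.51 and 9.97 in source water. Its means were 10.45 ± 0.06 in control and 9.69 ± 0.25 in source water (SD, n = 3 each). The groups did not overlap, and the log2 difference of -0.77 ± 0.14 (SE) did not pass over all probe sets (limma adjusted p = 0.150). For complex I assembly, 0 of 8 other genes had an unadjusted limma p under 0.05 (6.76% of all genes did). Foxred1 differed by -0.21 ± 0.13 (limma adjusted p = 0.976) and Ecsit by -0.15 ± 0.11 (0.988), and all 8 lay within 0.21 of 0, against -0.81 for Ndufaf4.

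The 10 genes for assembly of complexes II, III and V split evenly, 5 higher and 5 lower, within 0.17 of 0. Sdhaf1 of complex II differed by -0.17 ± 0.11 (log2, SE; limma adjusted p = 0.977) and Bcs1l of complex III by 0.17 ± 0.11 (0.981). Of 8 other coenzyme Q genes 2 were higher and 6 lower. Coq4 differed by 0.18 ± 0.11 (limma adjusted p = 0.976) and Coq10a by -0.18 ± 0.15 (0.999), against 0.99 for Coq8a. The other Coq10a probe set differed by 0.03, on the opposite side of 0.

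**Figure D4:**
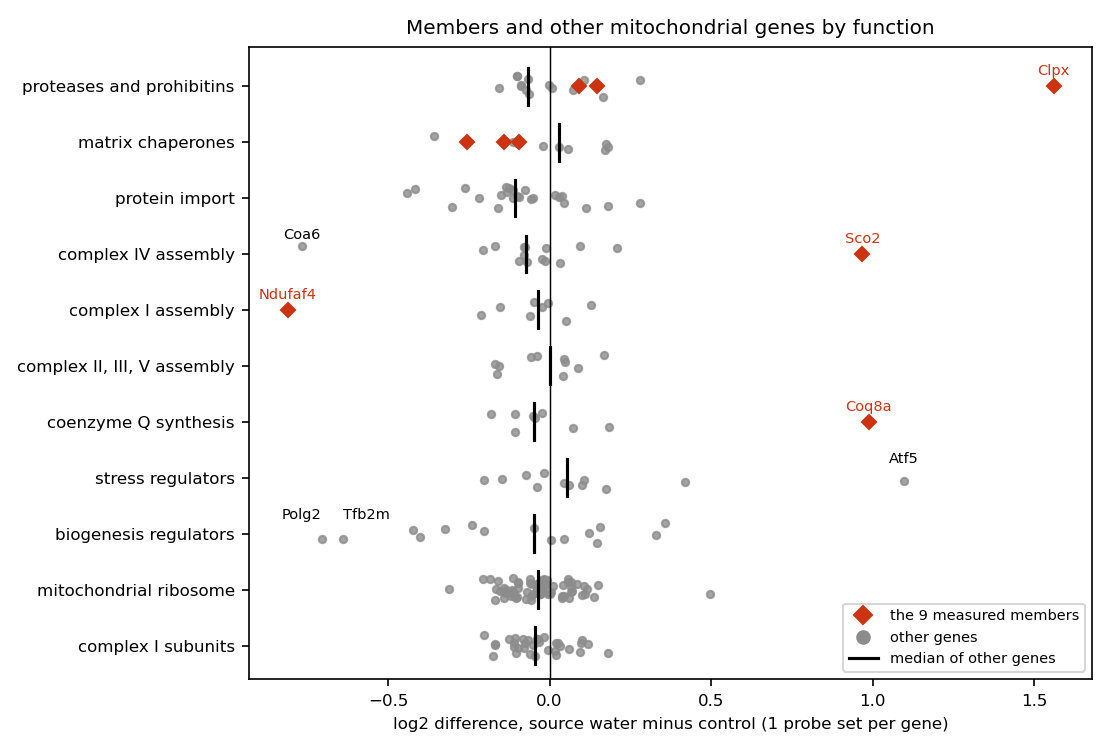
Each grey point is the log2 difference, source water minus control, of 1 gene by its brightest probe set, sorted by function; red diamonds are the 9 measured members and black ticks the medians of the other genes. Clpx, Sco2, Coq8a and Ndufaf4 lie outside the range of the other genes of their lists, and Coa6 lies low in the list of Sco2.

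Of the 114 genes, Atf5 differed most, followed by Coa6 and then by Polg2 and Tfb2m of the biogenesis regulators. Atf5, a transcription factor tied to the mitochondrial unfolded protein response in mammals, read 10.91, 9.76 and 10.49 in control and 11.85, 11.04 and 11.55 in source water. The groups did not overlap, and the log2 difference was 1.10 ± 0.30 (SE; limma adjusted p = 0.421). Replicate 2 was the lowest array of both groups, as for Clpx and for 24.6% of all probe sets above the median. With the replicate number as a block, limma gave Atf5 an adjusted p of 0.0381, although the numbers are not shown to pair the pools. Ddit3, which encodes CHOP, differed by 0.42 ± 0.15 (limma adjusted p = 0.697). Of 15 biogenesis regulators 6 had an unadjusted limma p under 0.05 (6.76% of all genes did), 2 higher and 4 lower (4.16% and 2.6% of all genes). Polg2, the accessory subunit of the mitochondrial DNA polymerase, read 7.58, 7.69 and 7.70 in control and 6.94, 6.82 and 7.09 in source water, and differed by -0.71 ± 0.11 (limma adjusted p = 0.0972), with groups that did not overlap. Tfb2m, needed to start mitochondrial transcription, differed by -0.64 ± 0.24 (0.721). It read 8.93, 7.83 and 8.52 in control and 7.74, 7.80 and 7.82 in source water, so control replicate 2 lay close to the source water arrays. Esrra differed by -0.40 ± 0.16 (0.733) and Ppargc1b by -0.42 ± 0.18 (0.812), both with groups that overlapped. The higher ones were Tfb1m at 0.36 ± 0.14 (0.752) and Pprc1 at 0.33 ± 0.10 (0.548). Ddit3, Esrra, Ppargc1b, Tfb1m and Pprc1 were named after their values were seen.

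Genes of the mitochondrial ribosome and of complex I itself were counted in the same way. Of 74 mitochondrial ribosomal protein genes 22 were higher and 52 lower, with a median log2 difference of -0.04. Mrps6 differed by 0.50 ± 0.12 (SE; limma adjusted p = 0.304) and Mrpl45 by -0.31 ± 0.15 (0.877). Of 33 complex I subunit genes 11 were higher and 22 lower, with a median of -0.04. None of the 33 had an unadjusted limma p under 0.05, against 6.76% of all genes. Ndufv2 differed by -0.17 ± 0.10 (limma adjusted p = 0.962) and Ndufc2 by -0.20 ± 0.12 (0.970).

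The genes whose 6 array values ran nearest to those of a member were found by the root mean square difference of log2 values, each centred on its own mean. For Sco2 the nearest gene was Coq8a, and for Coq8a it was Sco2, at 0.09 (log2), among 677 and 532 candidate genes. Both were chosen with near-equal differences between the groups, which make up most of this distance, so the match is no separate result. It holds for Coq8a probe set 1417066_at, while 1417067_s_at had another order of source water arrays. Amdhd1, of histidine breakdown, followed for Sco2 at 0.12 and Plin2, which coats lipid droplets, at 0.14. Ethe1, a mitochondrial sulfur dioxygenase, followed for Coq8a at 0.13 and Amdhd1 at 0.18. Clpx had wider gaps to its nearest genes, 2010003K11Rik at 0.18, Insig2, which retains sterol sensors in the endoplasmic reticulum, at 0.22 and the imprinted gene Peg3 at 0.23, among 113 candidates. For Ndufaf4 the nearest genes were Abhd15 at 0.07, the transcription factor gene Myc at 0.10 and Uhrf1bp1l at 0.10, among 1043. Clpx and Ndufaf4 were also chosen with their group differences known, so these matches are no separate result either.

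**Figure D5:**
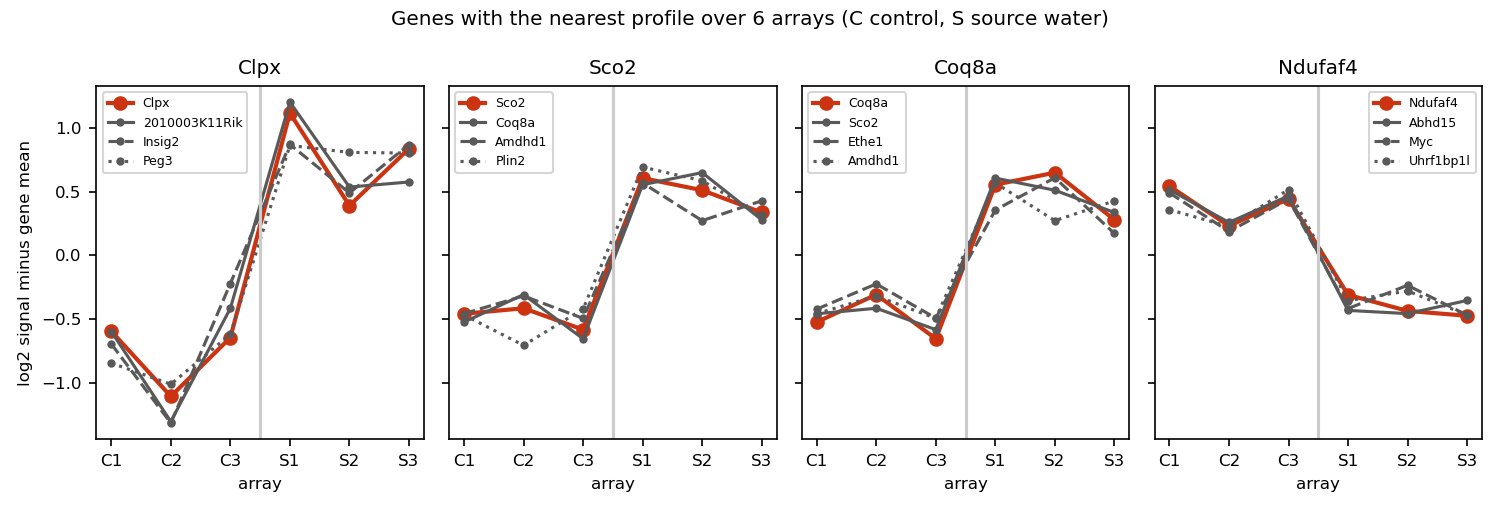
Each panel plots log2 signal minus the gene's mean on control arrays (C1 to C3) and source water arrays (S1 to S3) for a member (red) and the 3 genes nearest to it (grey). Every gene shown steps between control and source water, and Clpx and its 3 nearest genes are lowest in C2. Both features largely follow from the search, which took the profiles nearest to members chosen with their group differences known.

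The arrays held liver RNA by their markers. All 7 measured hepatocyte genes were above the median of all probe sets, and their mean log2 signal was 14.2 to 14.3 in control and 14.1 to 14.3 in source water. Of the marker genes measured for bile duct (4), striated muscle (6) and fat (4), 0 were above that median, and of 3 erythroid genes 1 was. Macrophage markers ran from 8.56 to 9.47 in control and from 8.78 to 9.28 in source water, and endothelial markers from 6.48 to 7.11 and from 6.67 to 7.03. Stellate cell and matrix markers were lower in every control array (6.51 to 6.71) than in any source water array (6.82 to 6.96), with 3 of 6 genes higher, 3 of 6 at an unadjusted limma p under 0.05 and 4 of 6 above the median. Bulk RNA cannot tell fewer cells of a type from less RNA per cell. The 3' minus 5' signal of the added dap RNA was 2.36 to 2.65 in control and 2.94 to 3.25 in source water, while that of Actb, Gapdh, thr, lys and phe overlapped between groups. The part of the stellate markers and of the dap signal in the differences of the members was not tested.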

How the data were processed

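The deposited table holds log2 signals, 1 column per array and 1 row per probe set, that the authors made with RMA and Partek, per the submitters' processing notes; versions and settings are not given in the sources used here. Their own comparison table was not used. The 64 control probe sets were left out of 22690. Symbols came from the platform annotation, and a gene with several probe sets was represented by the one of highest mean over 6 arrays.

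A linear model per probe set, without covariates, was fitted in R 4.3.3 using limma 3.58.1 and its eBayes moderation, with Benjamini-Hochberg adjustment over 22626 probe sets and a threshold of 0.05. The procedure was tested on simulated data. Differences are source water minus control with the moderated SE. Precision is limited by the 3 arrays per group, since arrays carry no read depth.

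The members, lists and tests were chosen with earlier results of these data known. Beyond the members, the text names, per list, up to 4 genes with an unadjusted p under 0.05 and a 1.5-fold difference, or else the 2 of smallest p. Nearest genes were sought among those above the median with at least 0.8 times the member's range, for members whose range exceeded 1. Alternatives were a replicate block, repeated quantile normalization, limma-trend, median centring, an unmoderated statistic, only probe sets above the median, gene means, and leaving out each array. Promoter sequences are those of RefSeq on GRCm38.p6.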

Additional observations from a re-analysis of the deposited data

How the results depend on the processing

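Against 9 probe sets past the limma threshold, the replicate block called 45, a repeated quantile normalization 30, limma-trend 35 and the unmoderated statistic 0 (1249 without adjustment). Leaving out 1 array gave 0 to 14, with the lowest count when control replicate 1 was dropped and the highest for control replicate 2. Dropping control replicate 3 gave 2 and dropping source water replicate 1 gave 1. Of the 114 other mitochondrial genes, 0 passed in every alternative except the replicate block, which called 1, Atf5 (limma adjusted p = 0.0381). Deviations from the group means had correlations of -0.07, 0.28 and 0.17 for arrays of the same number, and not every array was closest to its own number, so the numbers are not shown to pair the pools. The count of 11 at an unadjusted p under 0.05 ran from 7 to 12 when single arrays were left out, with 7 without control replicate 1 or without source water replicate 2.

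Of the 16 member probe sets, 13 kept their sign in all alternatives run, and 3 of Hspa9 did not. With single arrays left out, Clpx differed by 1.39 to 1.76, Sco2 by 0.91 to 1.04, Coq8a (1417066_at) by 0.91 to 1.09 and Ndufaf4 (1427997_at) by -0.90 to -0.74. Over the alternatives, 1 of 149 member values moved by over 1 pooled SD of the groups, Clpp as the mean of its probe sets (0.02). Leaving out 1 of 3 arrays in a group cannot move a difference that far, and the replicate block leaves it unchanged. Nothing on stability is read from this count. For the 25 genes named from the wider lists, 324 of 325 values kept direction and side of the threshold, Atf5 under the block being the exception. None of the 25 had passed the threshold in the main fit. The block, limma-trend and the unmoderated statistic leave the difference itself unchanged. Nothing on stability is read from the count for these genes either.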
